A study of Homo sapiens with 12 samples.

Results

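The genes described here are 10 genes that mark or drive the switch between epithelial and mesenchymal cell states: CDH1, EPCAM, CDH2, ESRP1, ESRP2, VIM, FN1, SNAI1, SNAI2 and ZEB1. They were chosen by symbol, and all 10 were found among the 17776 genes listed in either of the deposited tables. The study asked how a small molecule called 18E, which its title ties to LIC1 and autophagy, and knockdown with siDYN act on lung tumor cells. RNA was sequenced from NCI-H1975 and HCC827, established human cell lines of non-small cell lung cancer that both carry activating mutations of EGFR, the epidermal growth factor receptor. For the compound, cells of each line received 18E at 2.5 µM or 5 µM for 24 h, or DMSO, the solvent control. For the knockdown, each line was given siDYN-1 or siDYN-2 for 48 h, or the control siRNA siCON. The labels give no time for DMSO or siCON, and they do not spell out DYN. LIC1 is a light intermediate chain of the motor protein cytoplasmic dynein, encoded by DYNC1LI1. Each of the 12 libraries is a different pairing of line and treatment. The lines therefore serve as the replicates (n = 2 per group, 1 per line), and p-values of treatments measure the spread left after the line is taken out. For comparisons between the lines, the differently treated libraries of each line stand in for replicates.

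Epithelial cells are held together by E-cadherin junctions, and when they take on mesenchymal traits they lose these contacts and gain a vimentin cytoskeleton and a fibronectin matrix. Transcription factors of the SNAI and ZEB families repress CDH1 and other epithelial genes by binding E-box sequences, and the splicing factors ESRP1 and ESRP2 keep epithelial splice forms in place. In lung cancer lines with EGFR mutations this switch is known for its link to migration and to resistance to EGFR inhibitors.

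Levels are given in FPKM, the fragments assigned to a gene relative to its transcript length and to the library, as the authors deposited them. Totals ran between 486409 and 685680 FPKM per library, and read depth is unknown. A gene was tested when 2 or more of the 6 libraries of an experiment reached 1 FPKM, which held for 11953 genes with 18E and 11718 genes with the siRNAs. The library of HCC827 cells with 5 µM 18E stood apart: 7.4% of tested genes were at least 1 log2 unit higher than in its DMSO library and 7.24% at least 1 lower, against 1.78% and 1.13% for NCI-H1975 at 5 µM. DYNC1LI1 was at 7.49% to 21.5% of its siCON level in the 4 siDYN libraries. The epithelial marker list (KRT7, KRT8, KRT18, KRT19, NKX2-1, NAPSA) summed to between 3247 and 9662 FPKM per library, and all 6 genes were listed in both tables. Markers of fibroblasts (5 or 6 of 7 listed in the tables), endothelium (4 of 4) and leukocytes (3 of 5) summed to at most 1.47, 1.65 and 1.1 FPKM in any library. These sums were low beside the epithelial list, but not every gene stayed under 1 FPKM. In the 18E experiment COL1A1 reached 1.38 FPKM in NCI-H1975 and 1.12 FPKM in HCC827. In the siRNA experiment CDH5 reached 1.47 FPKM and COL1A1 1.13 FPKM, both in NCI-H1975.

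Of the 10 switch genes, 8 were tested in both experiments, and CDH2 and ZEB1 were left below the threshold in both. With 5 µM 18E, SNAI1, VIM and SNAI2 were higher than in DMSO in both lines, and CDH1, EPCAM, ESRP1, ESRP2 and FN1 were lower in both lines. With siDYN, CDH1, EPCAM and ESRP1 were lower than siCON in 4 of 4 libraries and SNAI2 was higher in 4 of 4, while SNAI1, VIM and FN1 went both ways. With both siRNAs or either dose entered as described, none of the 8 reached an adjusted p of 0.05 in limma, a linear model of log2(FPKM + 1) with the line as a block and Benjamini-Hochberg adjustment over all genes tested. The differences between the lines in CDH1 and VIM did pass in both tables.

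**Figure D1:**
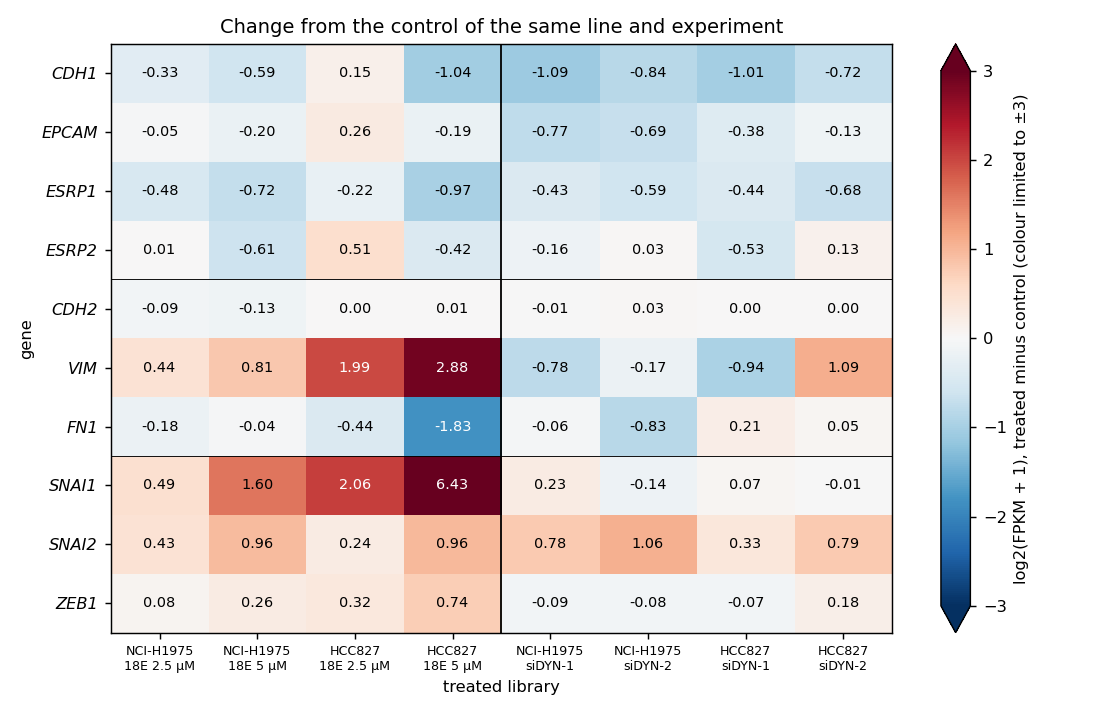
Each cell gives log2(FPKM + 1) of a treated library minus that of the control of the same line and experiment (columns: the 8 treated libraries; rows: the 10 genes; red higher and blue lower than control, colour limited to 3 either way). ESRP1 was lower in 8 of 8 columns and SNAI2 higher in 8 of 8, and the deepest red cell is SNAI1 in HCC827 with 5 µM 18E, at 6.43.

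Among the adhesion genes, CDH1 (chromosome 16, positions 68737225 to 68835548, plus strand, GENCODE 29 on GRCh38, as for the genes that follow, all of them protein-coding) encodes E-cadherin, the calcium-dependent adhesion protein of epithelial junctions. In NCI-H1975 it stood at 75.1 FPKM with DMSO, 59.4 with 2.5 µM and 49.5 with 5 µM. In HCC827 it stood at 199 FPKM with DMSO, 220.5 with 2.5 µM and 96.1 with 5 µM. Both lines were thus lower at 5 µM than with DMSO, to 65.9% and 48.3% of the DMSO level, while at 2.5 µM only NCI-H1975 was lower. The fitted log2 change at 5 µM was -0.82 ± 0.24 (SE, n = 2 lines; limma, adjusted p = 0.124), and at 2.5 µM it was -0.09 ± 0.24 (adjusted p = 0.974). In bulk libraries such as these, fewer cells expressing a gene and less RNA per cell cannot be told apart.

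EPCAM (chromosome 2, 47345158 to 47387601, plus strand), a surface adhesion protein of epithelial cells, was the most abundant of the 10 genes in 11 of the 12 libraries, the exception being HCC827 at 5 µM, where SNAI1 was above it. It stood at 421, 408 and 366 FPKM in NCI-H1975 with DMSO, 2.5 µM and 5 µM, and the HCC827 libraries held 418, 502 and 366 FPKM. The 5 µM libraries were the lowest of each line, by a log2 change of -0.20 ± 0.14 (limma, adjusted p = 0.393). CDH2 (chromosome 18, 27950966 to 28177446, minus strand), which encodes N-cadherin, the cadherin that mesenchymal cells use, was listed at no more than 0.12 FPKM in any of the 12 libraries. In NCI-H1975 it was at 0.12, 0.05 and 0.02 FPKM from DMSO to 5 µM, and in HCC827 it was listed at 0, 0 and 0.01 FPKM. These values are too low to order the treatments.

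The epithelial splicing regulators were both lower at 5 µM. ESRP1 (chromosome 8, 94641074 to 94707466, plus strand) stood at 63.4, 45.1 and 38.0 FPKM in NCI-H1975 with DMSO, 2.5 µM and 5 µM, and at 69.8, 59.8 and 35.1 FPKM in HCC827. It was the one tested switch gene that was lower at each dose step in both lines, a pattern shown by 17.6% of all genes tested. Its log2 change was -0.85 ± 0.18 at 5 µM (limma, adjusted p = 0.104) and -0.35 ± 0.18 at 2.5 µM (adjusted p = 0.915). ESRP2 (chromosome 16, 68229111 to 68238102, minus strand), its close relative, did not follow at the lower dose: it stood at 24.6, 24.9 and 15.7 FPKM in NCI-H1975 and at 20.7, 30.01 and 15.2 FPKM in HCC827. Its log2 change was -0.52 ± 0.18 at 5 µM (adjusted p = 0.158), 0.26 ± 0.18 at 2.5 µM (adjusted p = 0.923) and -0.78 ± 0.18 between 5 µM and 2.5 µM (adjusted p = 0.411). The ratio of ESRP1 to ESRP2 was 2.58, 1.82 and 2.42 in NCI-H1975, and the HCC827 ratios were 3.37, 1.99 and 2.31, lowest at 2.5 µM in both lines.

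**Figure D2:**
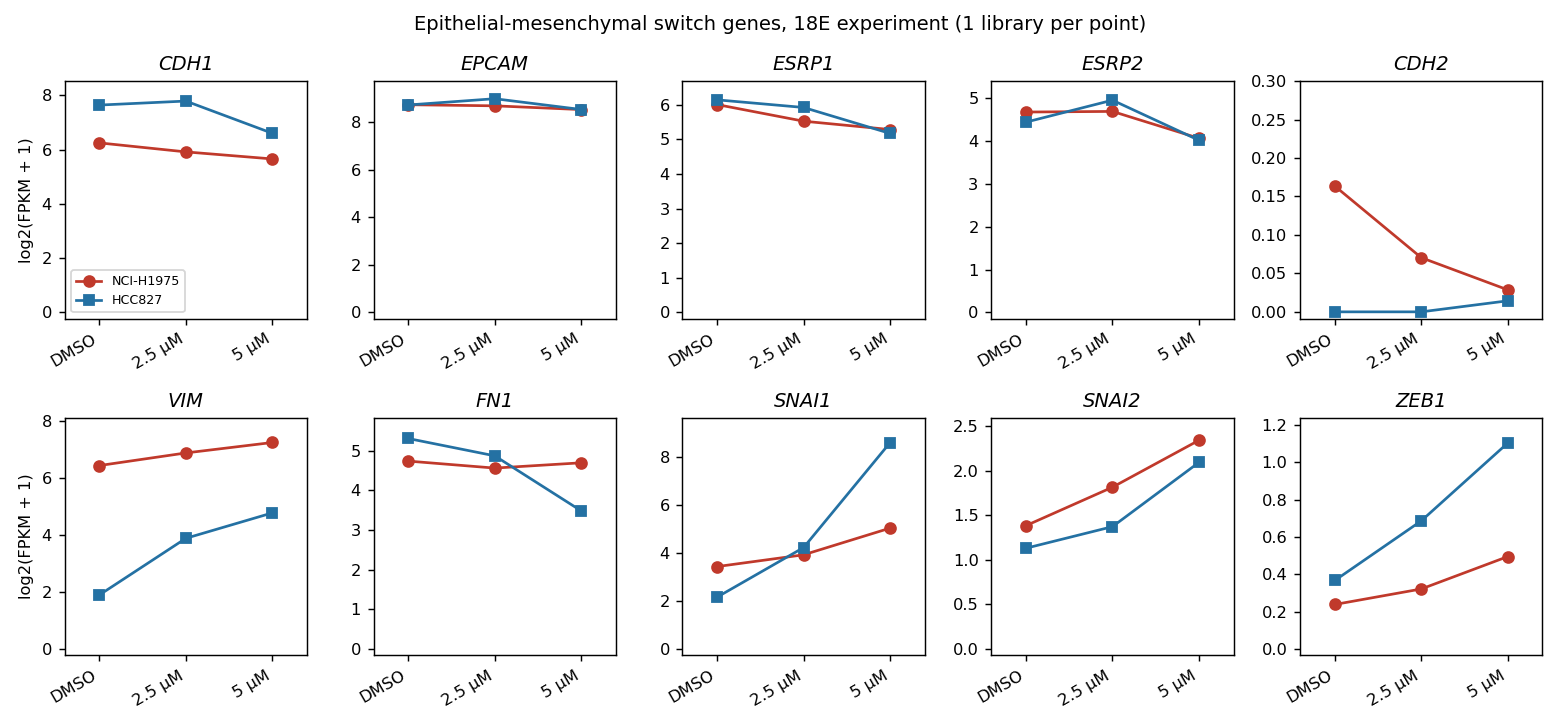
Level of each of the 10 genes in the 18E experiment, as log2(FPKM + 1) on axes that start at 0 and differ in range between genes (red circles NCI-H1975, blue squares HCC827, 1 library per point, x axis 18E dose). SNAI1, VIM and SNAI2 lie higher at each dose step in both lines, ESRP1 lower at each step, and CDH2 and ZEB1 stay below 1.2 on this scale.

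The structural genes VIM and FN1, both classed as mesenchymal, lay on opposite sides of DMSO in HCC827 at 5 µM, which is why their promoters are shown. The 300 bases below run from 250 before to 50 after each RefSeq start, with matches to the motifs searched in capitals: VIM at chr10:17227991-17228290 on the plus strand and FN1 at chr2:215436019-215436318 on the minus strand (RefSeq, GRCh38.p14). Of the 10 genes, 4 (CDH2, VIM, ZEB1 and FN1) had an entry in the promoter table.
VIM promoter: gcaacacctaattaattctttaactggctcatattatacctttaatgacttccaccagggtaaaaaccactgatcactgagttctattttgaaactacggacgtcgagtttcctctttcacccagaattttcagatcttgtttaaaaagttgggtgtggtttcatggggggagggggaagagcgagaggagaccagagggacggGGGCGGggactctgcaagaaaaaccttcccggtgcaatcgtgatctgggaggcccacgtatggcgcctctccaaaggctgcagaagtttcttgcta
FN1 promoter: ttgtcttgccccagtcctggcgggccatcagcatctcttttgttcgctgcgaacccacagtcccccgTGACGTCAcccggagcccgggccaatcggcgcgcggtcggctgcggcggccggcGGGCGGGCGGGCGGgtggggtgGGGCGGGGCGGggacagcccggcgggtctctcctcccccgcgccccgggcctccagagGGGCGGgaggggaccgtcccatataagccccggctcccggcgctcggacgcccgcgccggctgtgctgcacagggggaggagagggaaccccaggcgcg
On either strand, the Snail-type E-box CACCTG or CAGGTG matched 0 times in both windows, and 20.6% of 34796 promoters of this length hold it. The cAMP response element TGACGTCA, the site of CREB-type factors, matched once in FN1, 183 bases before the start, and not in VIM, against 1.84% of all promoters. The GC box GGGCGG or CCGCCC, the site of SP-type factors, matched 1 time in VIM, 46 bases before the start, and 6 times in FN1 with overlaps, between 129 and 49 bases before the start, against 44.9% of all promoters with at least one. These matches describe letters and were not tied to binding in these cells.

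VIM (chromosome 10, 17228259 to 17237593, plus strand) encodes vimentin, the intermediate filament of mesenchymal cells. In NCI-H1975 it stood at 86.1 FPKM with DMSO, 117 with 2.5 µM and 152 with 5 µM. In HCC827 it stood at 2.73 FPKM with DMSO, 13.8 with 2.5 µM and 26.5 with 5 µM. The dose order held in both lines, yet each HCC827 value lay below each NCI-H1975 value. The 5 µM level was 9.72-fold that of DMSO in HCC827 and 1.76-fold in NCI-H1975. Its fitted log2 change was 1.85 ± 0.48 at 5 µM (limma, adjusted p = 0.113, rank 98 from the highest of 11953) and 1.22 ± 0.48 at 2.5 µM (adjusted p = 0.915). Over both doses the change in NCI-H1975 minus that in HCC827 was -1.81 ± 0.59 log2 units, which did not pass (limma interaction, adjusted p = 0.999).

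FN1 (chromosome 2, 215360440 to 215436172, minus strand) encodes fibronectin, a matrix glycoprotein. It stood at 25.8, 22.7 and 25.0 FPKM in NCI-H1975 and at 38.7, 28.3 and 10.2 FPKM in HCC827 with DMSO, 2.5 µM and 5 µM. The low value belonged to 1 library, HCC827 at 5 µM, with 26.3% of its DMSO level, while the NCI-H1975 library at 5 µM kept 96.9%. The fitted log2 change at 5 µM was -0.93 ± 0.43 (limma, adjusted p = 0.228), and it was -0.11 without that HCC827 library.

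Among the repressors, SNAI1 (chromosome 20, 49982999 to 49988886, plus strand), which encodes Snail, a zinc finger factor that represses CDH1, had the largest change of the 10 genes at 5 µM 18E. In NCI-H1975 it stood at 9.8 FPKM with DMSO, 14.2 with 2.5 µM and 31.8 with 5 µM. In HCC827 it stood at 3.47 FPKM with DMSO, 17.7 with 2.5 µM and 386 with 5 µM. Each dose step was higher in both lines, and HCC827 lay above NCI-H1975 at both doses but below it with DMSO. The 5 µM level was 111-fold that of DMSO in HCC827, rank 4 of 11953 genes in that library, and 3.24-fold in NCI-H1975, rank 67. The fitted log2 change at 5 µM was 4.02 ± 1.05 (limma, adjusted p = 0.113, rank 6 of 11953), and it was 2.00 without the HCC827 library at 5 µM. At 2.5 µM it was 1.28 ± 1.05 (adjusted p = 0.923), and the difference between the lines was -3.20 ± 2.42 (NCI-H1975 minus HCC827, limma interaction, adjusted p = 0.999).

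SNAI2 (chromosome 8, 48917604 to 48921740, minus strand), which encodes Slug, the relative of Snail, was low in all libraries and differed from DMSO in the same direction in both lines. It stood at 1.61, 2.52 and 4.07 FPKM in NCI-H1975 and at 1.19, 1.59 and 3.27 FPKM in HCC827 with DMSO, 2.5 µM and 5 µM. The 5 µM level was 2.53-fold that of DMSO in NCI-H1975 and 2.75-fold in HCC827, and both 5 µM libraries lay above the other 4. The fitted log2 change was 0.96 ± 0.17 at 5 µM (limma, adjusted p = 0.1005) and 0.34 ± 0.17 at 2.5 µM (adjusted p = 0.915). VIM, SNAI1 and SNAI2 were the 3 tested switch genes that were higher at each dose step in both lines, a pattern shown by 9.65% of all genes tested. ZEB1 (chromosome 10, 31318495 to 31529814, plus strand), a zinc finger repressor of epithelial genes, had the same order at lower levels, with 0.18, 0.25 and 0.41 FPKM in NCI-H1975, and HCC827 held 0.29, 0.61 and 1.15 FPKM. It reached 1 FPKM in 1 of 6 libraries and was not tested.

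Counted over the 8 tested switch genes, 3 were higher at 5 µM than with DMSO in both lines, as were 25.5% of all 11953 genes, and 5 were lower in both lines, as were 40.8%. In the same comparison 0.00837% of genes passed an adjusted p of 0.05 as higher and 0.0% as lower. The 1 gene that passed, ADM, encodes the peptide adrenomedullin and is named here after its value was seen (log2 change 3.28 ± 0.19, limma, adjusted p = 0.0482). At an unadjusted p under 0.05, 3 switch genes were higher (VIM, SNAI1, SNAI2), against 10.0% of all genes, and 3 were lower (CDH1, ESRP1, ESRP2), against 16.8%. At 2.5 µM, 4 were higher in both lines, against 32.2% of all genes, and 2 were lower in both, against 31.6%. At that dose 0.0% of genes passed an adjusted p of 0.05 in either direction, and at an unadjusted p under 0.05 VIM was higher, against 3.25% of all genes, and no switch gene was lower, against 2.01%. Between 5 µM and 2.5 µM no gene passed (0.0% in either direction); at an unadjusted p under 0.05 SNAI1 and SNAI2 were higher at 5 µM, against 3.71% of all genes, and CDH1, ESRP1 and ESRP2 were lower, against 8.05%. For the difference of the 18E change between the lines no gene passed either, and at an unadjusted p under 0.05 VIM had the smaller change in NCI-H1975, against 0.82% of all genes, and no switch gene the larger, against 0.895%. In the NCI-H1975 library at 5 µM alone, 41.5% of all genes were higher than its DMSO library and 58.1% lower. Its counts for the 8, 3 higher and 5 lower, follow from the count over both lines and are no separate check.

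Single libraries changed the size of several of these log2 changes. Each fit below leaves 1 library in a group, so only the size of the change is given. Without the NCI-H1975 library at 5 µM, the fit had 1 residual degree of freedom. Its 5 µM term rested on the HCC827 library that stood apart. The log2 change at 5 µM was then -1.16 for CDH1, -1.04 for ESRP1, -1.76 for FN1, 6.04 for SNAI1, 1.01 for SNAI2 and 2.50 for VIM. Without the NCI-H1975 DMSO library the log2 change at 5 µM was 5.62 for SNAI1 and 2.75 for VIM, and that of VIM at 2.5 µM was 2.12. Between 5 µM and 2.5 µM, without the NCI-H1975 library at 5 µM, the change was -1.07 for CDH1, -0.69 for ESRP1, -0.81 for ESRP2, -1.45 for FN1, 4.76 for SNAI1 and 0.67 for SNAI2. Without the HCC827 library at 5 µM the change at 5 µM was -0.47 for CDH1, -0.66 for ESRP1, -0.49 for ESRP2, -0.13 for EPCAM, 1.20 for VIM and 0.91 for SNAI2. Over all libraries left out in turn, the change at 5 µM ran from 0.94 to 2.75 for VIM and from 2.00 to 6.04 for SNAI1.

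Knockdown with siDYN was set against siCON in the same lines, and CDH1 had the lowest adjusted p of the 8 genes. In NCI-H1975, CDH1 stood at 27.5 FPKM with siDYN-1 and 32.9 with siDYN-2, against 59.9 with siCON. In HCC827 it stood at 58.1 FPKM with siDYN-1 and 71.0 with siDYN-2, against 118 with siCON. All 4 siDYN libraries lay below the siCON library of their own line, at between 45.9% and 60.3% of it. Fitted over both siRNAs, the log2 change was -0.92 ± 0.15 (limma, adjusted p = 0.0878, rank 88 from the lowest of 11718). With the siRNAs as separate terms, the change passed for siDYN-1, at -1.05 (adjusted p = 0.0406), and for siDYN-2, at -0.78 (adjusted p = 0.0189). Those 2 values share the siCON libraries. Of all 11718 genes, 37 passed as lower and 45 as higher for siDYN-1, and 915 as lower and 1209 as higher for siDYN-2.

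EPCAM was lower in the same 4 libraries, with 217 FPKM for siDYN-1 and 231 for siDYN-2 against 372 for siCON in NCI-H1975, and with 241 and 288 against 314 in HCC827. The lines did not match in size: siDYN-2 left 62.0% of the siCON level in NCI-H1975 and 91.6% in HCC827. Its log2 change was -0.49 ± 0.16 (limma, adjusted p = 0.125). ESRP1 stood at 27.9 FPKM with siDYN-1 and 24.7 with siDYN-2 against 37.8 with siCON in NCI-H1975, and at 32.8 and 27.7 against 45.0 in HCC827. It was lower in 4 of 4 libraries, lower with siDYN-2 than with siDYN-1 in both lines, and its log2 change was -0.54 ± 0.14 (limma, adjusted p = 0.105), or -0.64 for siDYN-2 as a separate term (adjusted p = 0.0254). For that siDYN-2 term 915 of all 11718 genes passed as lower and 1209 as higher. ESRP2 had no common direction, with 13.2, 15.1 and 14.8 FPKM for siDYN-1, siDYN-2 and siCON in NCI-H1975, and HCC827 held 8.68, 14.4 and 13.0 FPKM. Its fitted change was -0.13 ± 0.21 (adjusted p = 0.710). CDH2 was listed at 0.06, 0.09 and 0.07 FPKM in NCI-H1975 and at 0 in all 3 HCC827 libraries.

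**Figure D3:**
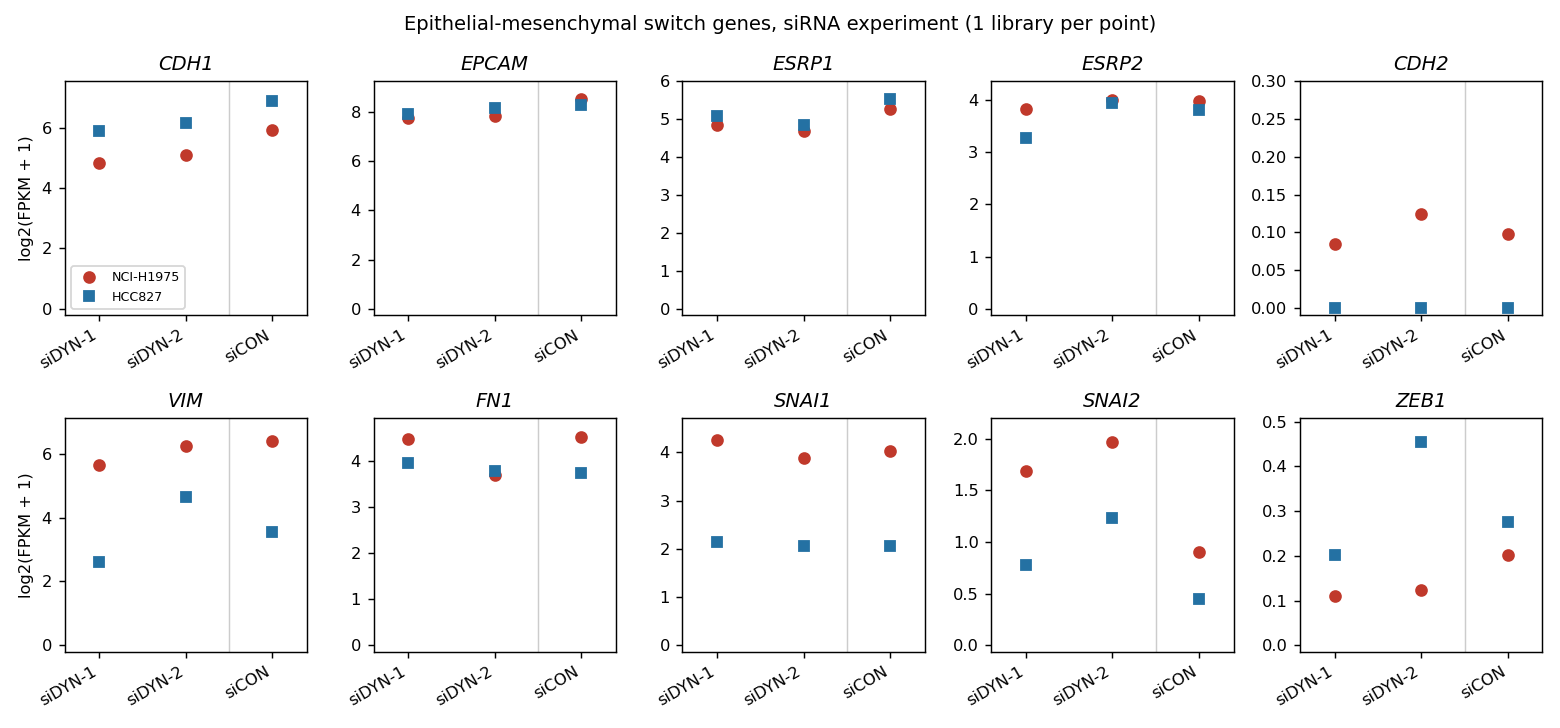
Level of each of the 10 genes in the siRNA experiment, as log2(FPKM + 1) on axes that start at 0 and differ in range between genes (red circles NCI-H1975, blue squares HCC827, 1 library per point, siCON right of the grey line). CDH1, EPCAM and ESRP1 lie below siCON in all 4 siDYN libraries and SNAI2 above it, while VIM lies above siCON in 1 of 4.

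The mesenchymal genes did not share a direction under siDYN. VIM stood at 48.5 FPKM with siDYN-1 and 74.6 with siDYN-2 against 83.9 with siCON in NCI-H1975, and at 5.06 and 23.7 FPKM against 10.7 in HCC827. It was lower than siCON in 3 of the 4 libraries and higher in HCC827 with siDYN-2, at 2.23-fold. The log2 change was -0.20 ± 0.52 over both siRNAs (limma, adjusted p = 0.830), with -0.86 for siDYN-1 and 0.46 for siDYN-2 as separate terms. FN1 stood at 21.4 and 12.1 FPKM with siDYN-1 and siDYN-2 against 22.3 with siCON in NCI-H1975, and at 14.5 and 12.9 FPKM against 12.4 in HCC827. Both siDYN libraries were lower than siCON in NCI-H1975 and both were higher in HCC827, the largest step being siDYN-2 in NCI-H1975 with 54.2% of siCON. The change was -0.16 ± 0.25 (limma, adjusted p = 0.714), and its difference between the lines was -0.58 ± 0.51 (NCI-H1975 minus HCC827, limma interaction, adjusted p = 1.00).

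SNAI1 stood at 18.1 FPKM with siDYN-1 and 13.7 with siDYN-2 against 15.2 with siCON in NCI-H1975. In HCC827 it stood at 3.39 and 3.15 FPKM against 3.19. The siDYN libraries lay on both sides of siCON, with a log2 change of 0.04 ± 0.16 (limma, adjusted p = 0.903) that became -0.07 when libraries were scaled to equal totals. SNAI2 stood at 2.22 and 2.9 FPKM with siDYN-1 and siDYN-2 against 0.87 with siCON in NCI-H1975, and at 0.71 and 1.35 FPKM against 0.36 in HCC827. It was higher in 4 of 4 libraries, by 1.97-fold to 3.75-fold, and higher with siDYN-2 than with siDYN-1 in both lines. Its log2 change was 0.74 ± 0.19 in limma, or 0.92 for siDYN-2 as a separate term. Both siCON libraries were under 1 FPKM, so SNAI2 entered the test through its siDYN libraries alone. For that reason no p-value against siCON is given for it. ZEB1 was at 0.08, 0.09 and 0.15 FPKM in NCI-H1975 and at 0.15, 0.37 and 0.21 FPKM in HCC827 with siDYN-1, siDYN-2 and siCON, and was not tested.

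SNAI2 is not counted against all genes here, because it was tested only through the siDYN libraries in which it was high. Of the other 7 tested genes, 3 were lower than siCON in 4 of 4 libraries, against 25.6% of all 11718 genes, and 0 were higher in 4 of 4, against 24.9%. No gene of the table passed over both siRNAs (0.0% in either direction), and at an unadjusted p under 0.05 CDH1, EPCAM and ESRP1 were lower, against 13.4% of all genes, and 0 of the 7 were higher, against 12.6%. For the difference of the siDYN change between the lines no gene passed, and no switch gene had an unadjusted p under 0.05, against 0.674% of all genes with the larger and 0.845% with the smaller change in NCI-H1975. Over both experiments ESRP1 was lower than its own control in 8 of 8 treated libraries, as were 10.6% of the 11449 genes tested in both tables, and 0 of the 7 were higher in 8 of 8, as were 7.2%. SNAI2 stood above its own control in 8 of 8. CDH1 and EPCAM were lower in 7 of 8, the exception being HCC827 with 2.5 µM 18E for both. The 18E and siDYN experiments have separate controls, and levels were not compared between their tables.

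**Figure D4:**
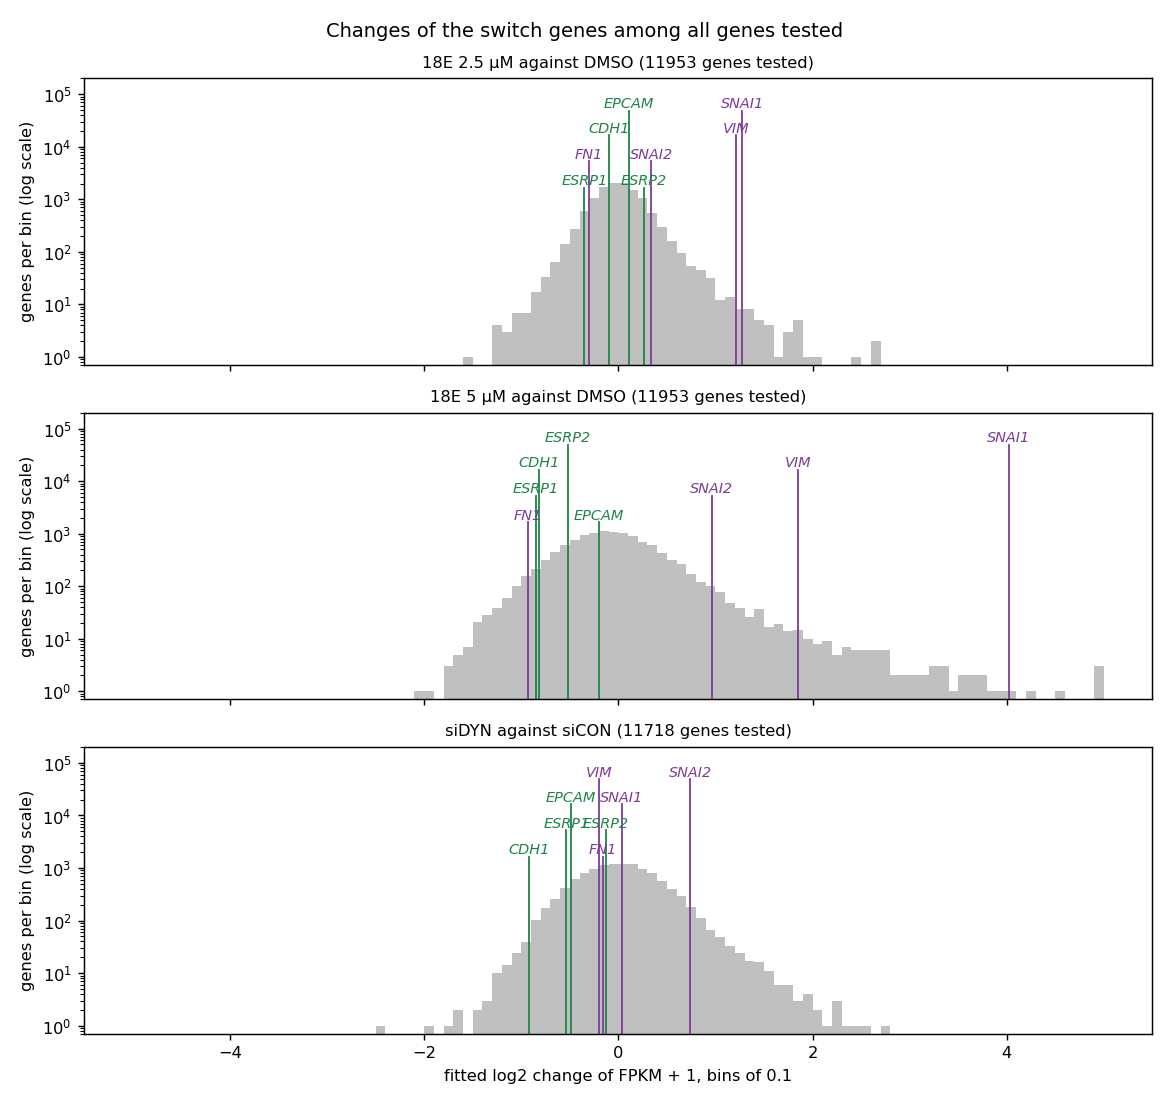
Number of genes (log axis) by fitted log2 change of FPKM + 1 in bins of 0.1, for 2.5 µM 18E against DMSO, 5 µM 18E against DMSO and siDYN against siCON (grey), with the 8 tested switch genes as lines (green epithelial, purple mesenchymal or repressor). At 5 µM SNAI1 lies at 4.02, rank 6 of 11953, and under siDYN CDH1 lies at -0.92, rank 88 from the lowest of 11718.

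The siRNAs were also set against each other, a comparison added after the values were seen. VIM was higher with siDYN-2 than with siDYN-1 in both lines, by a log2 change of 1.32 ± 0.33 (limma, adjusted p = 0.109, rank 47 from the highest of 11718). CDH1 was higher by 0.27 ± 0.12 (adjusted p = 0.264), SNAI2 by 0.37 ± 0.17 (0.276) and ESRP2 by 0.42 ± 0.16 (0.215), each in both lines. The differences were -0.20 ± 0.12 for ESRP1 (0.381) and -0.46 ± 0.22 for FN1 (0.291), each lower with siDYN-2 in both lines. Among all genes, 38.0% were higher with siDYN-2 in both lines and 27.7% lower, while 0.393% passed as higher and 0.213% as lower. At an unadjusted p under 0.05 VIM and ESRP2 were higher with siDYN-2, against 13.0% of all genes, and no switch gene was lower, against 7.9%. The VIM difference was 1.72 without the NCI-H1975 siDYN-1 library and 1.99 without the NCI-H1975 siDYN-2 library. Over all libraries left out in turn it ran from 0.65 to 1.99.

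The lines themselves differed in the balance of vimentin and E-cadherin. The p-values between the lines rest on differently treated libraries of each line. They do not measure the spread between repeats of 1 treatment in 1 line. CDH1 was lower in NCI-H1975 than in HCC827 under each of the 6 treatments, with a log2 difference of -1.40 ± 0.19 in the 18E experiment (limma line term, adjusted p = 0.00292) and -1.03 ± 0.14 in the siRNA experiment (adjusted p = 0.00146). VIM was higher in NCI-H1975 under each treatment, by 3.34 ± 0.39 (adjusted p = 0.00177) and 2.50 ± 0.49 (adjusted p = 0.00641). Such differences are common between these lines: 30.7% of genes passed as higher in NCI-H1975 and 21.2% as lower with 18E and DMSO, and 28.3% and 18.6% did so in the siRNA libraries. Scaling the libraries to equal totals moved the median of all genes in the 18E table from 0.10 to -0.01 and kept both calls. The ratio of VIM to CDH1 within a library was 1.15 with DMSO, 1.98 with 2.5 µM and 3.07 with 5 µM in NCI-H1975, and 0.0137, 0.0627 and 0.276 in HCC827. It was 1.76 and 2.26 with siDYN-1 and siDYN-2 against 1.4 with siCON in NCI-H1975, and 0.0871 and 0.334 against 0.0903 in HCC827. All treated ratios except HCC827 with siDYN-1 lay above their own control, and no HCC827 ratio reached the lowest NCI-H1975 ratio. In NCI-H1975 with siDYN-1 and siDYN-2, VIM itself was below siCON, at 57.85% and 88.9% of it. The ratio was higher there because CDH1 was lower still, at 45.9% and 55.0%.

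SNAI1 was higher in NCI-H1975 in the siRNA table by 1.97 ± 0.15 log2 units (limma, adjusted p = 0.000145). In the 18E table the difference was -0.86 ± 0.85 (adjusted p = 0.430). It was 0.49 with either 5 µM library left out and -1.93 with either DMSO library left out. Each of these fits leaves 1 library in a group, so only the size is given. With a DMSO library left out, the line term rested on the 18E-treated libraries alone. With DMSO itself, SNAI1 stood at 9.8 FPKM in NCI-H1975 and 3.47 in HCC827. SNAI2 was higher in NCI-H1975 by 0.70 ± 0.18 in the siRNA table, which became 0.59 without NCI-H1975 siDYN-2. It entered that test only through both NCI-H1975 siDYN libraries and HCC827 siDYN-2, so no p-value is given for it there. In the 18E table SNAI2 was higher in NCI-H1975 by 0.31 ± 0.14 (limma, adjusted p = 0.113). EPCAM, ESRP1, ESRP2 and FN1 did not pass between the lines in either table with all 6 libraries. FN1 lay in opposite directions when 1 library was left out. It was lower in NCI-H1975 in the 18E table, at -0.44, with either 5 µM library left out. In the siRNA table it was higher in NCI-H1975, at 0.69, without NCI-H1975 siDYN-2. For these fits of FN1 too, only the size is given.

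Other genes of the epithelial programme were described from a list of 25, all tested, that holds cell adhesion genes, keratins and epithelial transcription factors. At 5 µM, 17 of the 25 were lower than DMSO in both lines, against 40.8% of all genes, and 1 was higher in both, against 25.5%, with a median log2 change of -0.34 against -0.09 over all genes. Of the 25, 0 passed an adjusted p of 0.05, and at an unadjusted p under 0.05 7 were lower, against 16.8% of all genes, and 1 was higher, against 10.0%. In NCI-H1975 at 5 µM alone, 19 of the 25 were lower, against 58.1% of all genes, and 6 were higher, against 41.5%. The median there was -0.29 against -0.07 over all genes. Those 19 include the 17 lower in both lines, so the count is not a separate check. GRHL2, a transcription factor that upholds CDH1, stood at 18.0, 13.3 and 8.53 FPKM in NCI-H1975 and at 12.7, 11.4 and 5.18 FPKM in HCC827 with DMSO, 2.5 µM and 5 µM, a log2 change of -1.07 ± 0.18 at 5 µM (limma, adjusted p = 0.1005). OVOL1, another epithelial transcription factor, was the one higher in both lines, at 6.85, 6.62 and 9.85 FPKM in NCI-H1975, and HCC827 held 6.11, 7.02 and 23.2 FPKM, a log2 change of 1.12 ± 0.33 (adjusted p = 0.128). CDH3, which encodes P-cadherin, and TJP3, a tight junction scaffold, had log2 changes of -0.89 ± 0.29 (adjusted p = 0.142) and -0.94 ± 0.29 (adjusted p = 0.132).

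With siDYN, 11 of the 25 epithelial genes were lower in 4 of 4 libraries, against 25.6% of all genes, and 4 were higher in 4 of 4, against 24.9%, with a median log2 change of -0.10 against 0.01 over all genes, and 0 passed. MAL2, a membrane trafficking protein of polarized cells, stood at 81.0 and 64.0 FPKM with siDYN-1 and siDYN-2 against 148 with siCON in NCI-H1975, and at 75.2 and 61.1 FPKM against 90.9 in HCC827. All 4 siDYN libraries lay below siCON, by a log2 change of -0.72 ± 0.20 (limma, adjusted p = 0.107). CDH3 was lower in 4 of 4 as well, at -0.47 ± 0.14 (adjusted p = 0.114). At 2.5 µM 18E, 11 of the 25 were lower in both lines, against 31.6% of all genes, and 1 was higher, against 32.2%, with a median of -0.09 against 0.00 over all genes.

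Of 20 further mesenchymal genes, 9 were tested with 18E and 11 with siDYN, with median log2 changes of -0.05 at 5 µM, 0.05 at 2.5 µM and 0.10 with siDYN, against -0.09, 0.00 and 0.01 over all genes, and 0 passed in any comparison. The 18E and siDYN medians cover different sets of genes. The siDYN set holds ACTA2, at 1.37 and 2.27 FPKM against 0.89 with siCON in NCI-H1975 and at 1.1 and 1.41 against 0.6 in HCC827. ACTA2 was thus tested only through the libraries where it was high, and nothing is read from the siDYN median. TNC, which encodes the matrix protein tenascin C, was lower at 5 µM in both lines, at 37.7 FPKM against 52.0 with DMSO in NCI-H1975 and at 67.6 FPKM against 236 in HCC827, a log2 change of -1.12 ± 0.31 (limma, adjusted p = 0.121). ITGA5, a fibronectin receptor subunit, was higher at 5 µM in both lines and with siDYN in 4 of 4 libraries, by 0.50 ± 0.17 at 5 µM (adjusted p = 0.148) and by 0.41 ± 0.14 with siDYN (adjusted p = 0.143).

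Of 10 other transcription factors of the switch, 3 (TCF3, TWIST2 and SOX9) were tested, and 0 passed. The middle value of the 3 was that of TWIST2 in each comparison: -0.26 at 5 µM, -0.01 at 2.5 µM and 0.11 with siDYN. TWIST2 entered the tests through HCC827 alone, so no median of this list is set against all genes. TWIST2 was at or below 0.04 FPKM in NCI-H1975 throughout and between 2.81 and 7.82 FPKM in HCC827. Transforming growth factor beta is a known inducer of SNAI1, and 16 of 17 listed genes of its pathway were tested. Their median log2 changes were -0.03 at 5 µM, -0.08 at 2.5 µM and -0.25 with siDYN, against -0.09, 0.00 and 0.01 over all genes. With siDYN, 8 of the 16 were lower in 4 of 4 libraries, against 25.6% of all genes, and 1 was higher in 4 of 4, against 24.9%. With 18E the list was split. At 5 µM, 5 were higher in both lines, against 25.5% of all genes, and 5 were lower, against 40.8%. At 2.5 µM, 7 were higher in both lines, against 32.2%, and 8 were lower, against 31.6%. TGFBR1, the type I receptor, stood at 5.46 and 6.06 FPKM with siDYN-1 and siDYN-2 against 15.0 with siCON in NCI-H1975, and at 1.54 and 1.79 FPKM against 2.54 in HCC827, a log2 change of -0.83 ± 0.21 (limma, adjusted p = 0.104).

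ID2, an inhibitor of basic helix-loop-helix factors, stood at 8.42, 13.9 and 41.1 FPKM in NCI-H1975 and at 16.3, 32.9 and 383 FPKM in HCC827 with DMSO, 2.5 µM and 5 µM, the same dose order as SNAI1. Its log2 change at 5 µM was 3.32 ± 0.55 (limma, adjusted p = 0.1005). SMAD3, a transcription factor of the pathway, stood at 27.2, 17.6 and 10.7 FPKM in NCI-H1975 and at 40.0, 32.6 and 22.1 FPKM in HCC827, lower at each step in both lines, with a log2 change of -1.05 ± 0.18 at 5 µM (adjusted p = 0.1005). ID3, a relative of ID2, was higher in all 8 treated libraries than in its own controls, by 1.02 ± 0.22 at 5 µM (adjusted p = 0.104) and by 0.87 ± 0.23 with siDYN (adjusted p = 0.106).

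The genes whose 8 changes lay nearest to those of a switch gene were found among 11448 genes by the root mean square of the 8 log2 differences. CDH1 was nearest to PCYOX1 (0.18 log2 units) and SFT2D2 (0.19), set against a root mean square change of 0.79 for CDH1 itself. SNAI2 was nearest to PFDN2 (0.15) and DUSP2 (0.18), with 0.76 for SNAI2 itself. FN1 was nearest to CDK1 and UBE2C, genes of mitosis, at 0.24 each, with 0.73 for FN1 itself. VIM had no such close match, with ZFP36 and KPNA7 at 0.58 each against 1.41 for VIM. SNAI1 was nearest to the stress gene GADD45B (0.62) and to RASD1 (0.66), against 2.46 for SNAI1. The HCC827 library with 5 µM 18E, which stood apart, held the largest change of FN1 (-1.83), VIM (2.88) and SNAI1 (6.43). It therefore weighed most in their matches, and a link to mitosis or stress was not tested.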

How the data were processed

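RNA for 12 libraries was extracted with Trizol and prepared with Illumina's TruSeq kit, as the labels' protocols state. Per the file headers, the authors deposited FPKM values in 1 table per experiment. Bowtie 0.12.2 and the builds mm8, a mouse build, and GRCh38.p12 are named without a role, per the submitters' processing notes; how fragments were quantified, with which annotation and with or without strand, is not given in the sources used here. Complete genes numbered 16760 with 18E and 17442 with the siRNAs, and 0 per-sample columns were left unmatched. Lines of spilled text (20 per table) and 20 genes cut before the NCI-H1975 values were left out. Ratios of low values did not fall on whole reads; depth is therefore unknown, and an exact 0 is reported as listed at 0.

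Values were tested as log2(FPKM + 1), a scale that understates changes of low genes, with limma 3.58.1 in R 4.3.3, a variance trend and the line as a block, after a filter of at least 1 FPKM in at least 2 of 6 libraries. Replicate numbers stand for the lines, so same-numbered libraries come from the same line and are paired. Dose fits had 2 residual degrees of freedom and siDYN fits 3. The siRNAs counted as 1 treatment. The line difference of a change used doses or siRNAs in place of replicates. The comparison of levels between the lines used the differently treated libraries of each line in place of replicates. The fits were run on simulated data with independent noise of equal size for every gene. That checks the recovery of known changes and not the spread in these libraries. Alternatives were a pseudocount of 0.1, no filter, quantile normalization, equal totals, no trend, no block, pooled doses, separate siRNAs and each library left out. The genes, lists and named examples (all 10 genes, and of each list up to the 4 largest changes) were chosen with earlier results of these data known. The values of 1 gene of the lists are not reported here.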

Additional observations from a re-analysis of the deposited data

Results flagged for a closer look

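FN1 was singled out because its siDYN libraries moved in opposite directions in the lines. Both siDYN libraries were lower than siCON in NCI-H1975 (log2 changes of -0.06 and -0.83) and both were higher in HCC827 (0.21 and 0.05). The difference of the changes, NCI-H1975 minus HCC827, was -0.58 ± 0.51 on the log2 scale and did not pass (limma interaction, adjusted p = 1.00). The cause was not tested.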

How the results depend on the processing

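At 5 µM 18E, 1 gene passed as described; 16 passed with a pseudocount of 0.1, 0 with no filter, quantile normalization, equal totals, no variance trend, no replicate block or pooled doses, and 34 to 4520 when 1 library was left out. No gene passed at 2.5 µM, between the doses or for siDYN, including without the replicate block (0 each); with 1 library left out, 0 to 26, 0 to 3478 and 0 to 128 passed, and for siDYN 82 with siDYN-1 and 2124 with siDYN-2 as separate terms. For the line difference of the siDYN change 1 passed with a pseudocount of 0.1. Between the lines 6210 and 5496 genes passed, and with 1 library left out 3573 to 7420 in the 18E table and 3403 to 4863 in the siRNA table. Between the siRNAs 71 passed, and 0 with no filter or no replicate block, 33 with equal totals, 1 with no variance trend and 1 to 386 with 1 library left out. The counts of 4520 and 3478 came without NCI-H1975 at 5 µM, those near 3573 without a 2.5 µM library, those near 3403 without a siCON library and 128 without HCC827 siDYN-1; the causes were not tested. In these fits the line left alone in a group is assumed to vary like the other groups.

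Of the switch genes' results under these alternatives, 746 kept direction and side of the threshold and 53 reversed. Another 24 passed only under the alternative in the same direction, and 1 no longer passed. Fits that leave 1 library in a group are among them, so no call is read from these counts. Under siDYN, ESRP2 (0.080), SNAI1 (-0.079) and VIM (0.46) reversed for siDYN-2 alone, FN1 (0.075) for siDYN-1 alone and SNAI1 (-0.066) with equal totals. With 1 library left out, log2 changes with a reversal ran from -0.44 to 0.26 (CDH1), -0.043 to 0.26 (EPCAM), -0.82 to 0.20 (FN1) and -0.32 to 2.88 (SNAI1) at 2.5 µM; from -1.45 to 0.20 (FN1) and -0.020 to 1.28 (VIM) between the doses; from -0.15 to 0.0036 (EPCAM), -0.11 to 0.14 (ESRP2), -0.44 to 0.45 (FN1) and -1.93 to 0.49 (SNAI1) between the lines in the 18E table; and from -0.27 to 0.020 (ESRP2), -0.45 to 0.13 (FN1), -0.047 to 0.12 (SNAI1) and -0.67 to 0.20 (VIM) for siDYN. With 1 library left out they also ran from -0.23 to 0.043 (EPCAM) between the lines in the siRNA table, from -0.013 to 0.35 (EPCAM) between the siRNAs, from -0.61 to 0.58 (CDH1), -0.39 to 0.065 (EPCAM), -0.38 to 0.37 (ESRP1), -0.81 to 0.12 (ESRP2) and -0.27 to 0.45 (SNAI2) for the line difference of the 18E change and from -0.25 to 0.040 (CDH1), -0.067 to 0.17 (ESRP1), -0.20 to 0.46 (ESRP2), -0.17 to 0.21 (SNAI1) and -1.56 to 0.47 (VIM) for that of the siDYN change. Between the lines in the 18E table ESRP2 also reversed with quantile normalization (-0.051) and equal totals (-0.12), and FN1 with equal totals (-0.015). The line difference reversed with quantile normalization for CDH1 in the 18E change (0.020) and SNAI1 in the siDYN change (-0.022), and with equal totals for SNAI1 (-0.050) and ESRP1 (-0.0014) in the siDYN change. Depth is unknown, so no counting error can be given for CDH2 and ZEB1, which were near 0.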
